A study of Danio rerio with 6 samples.

Results

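Blf, nnr, pnrc2, asb11, znf703, cited4b, vgll4l, dact2, polr3gla and ier5l are 10 zebrafish genes of mixed function that belong to the first wave of transcription from the embryo's own genome. They were followed here in sphere-stage embryos, which are at the blastula stage. The nanog-like-MO1 embryos carried nanog-like-MO1, a morpholino against nanog-like, now named nanog, and are labelled as having a gastrulation defect. The control-MO embryos carried a control morpholino, labelled control-MO, and are labelled as normal. Each group had 3 arrays of total RNA, called biological replicates of separate cultures in the labels, and all embryos were kept in E3 fish water. The labels do not give the strain, the age in hours, the number of embryos behind an array, or whether this morpholino blocks translation or splicing, and Nanog protein was not measured. The level of nanog mRNA was 14.89 ± 0.06 in nanog-like-MO1 embryos and 14.91 ± 0.06 in control-MO embryos (log2 intensity, SD, n = 3 each).

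Before the genome of the zebrafish embryo becomes active, it develops on RNA and protein that the mother placed in the egg. Maternal Nanog, Pou5f3 and SoxB1 factors then bind near many of the first genes and help to switch them on. The 10 genes cover several kinds of protein: zinc finger factors, transcription cofactors, an RNA polymerase III subunit, an mRNA decay factor and regulators of Notch, Wnt and Nodal signalling.

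All 10 genes had at least 1 target, a target being the set of probes on the array that reports 1 transcript, and 12 of the 38489 targets on the array belonged to them. Cited4b and dact2 had 2 targets each. Their targets overlap in the genome, so the targets of a pair are not independent measurements of the gene. Targets were found by the gene symbol in the array design, by an older symbol (cited3 for cited4b, nlz1 for znf703, zgc:101594 for polr3gla, zgc:77455 for ier5l) or by RefSeq accession. The pnrc2 target and the dimmer dact2 target were found by map marker, and the design's human gene columns read PNRC2 and DACT2 there. Those columns read ZNF703 for znf703, but CITED2 for both cited4b targets and IER5 and LOC464786 for ier5l. For the remaining targets they are empty. The design names the asb11 target asb11 but describes it as similar to vertebrate ASB5. No target carried the older symbols znfs or fam212aa as its name.

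The arrays resembled each other within groups, with a mean correlation with their group mates from 0.985 to 0.988 over all targets, which are not independent replicates. The 7 measured genes of a list of maternal transcripts, among them nanog, pou5f3 and zar1, gave a mean level from 12.90 to 13.08 on the nanog-like-MO1 arrays and from 13.06 to 13.08 on the control-MO arrays. Genes of tissues that form later in development, such as myod1, ins and gfap, had mean levels from 6.55 to 6.71 on the nanog-like-MO1 arrays and from 6.62 to 6.71 on the control-MO arrays, and 9 of the 12 measured lay below 6.74, the 25th percentile of all targets. In whole embryos, fewer cells of a type and less RNA per cell cannot be told apart. The same holds for maternal RNA and RNA from the embryo's own genome, since every array is of total RNA at sphere stage.

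Of the 10 genes, 4 fell in nanog-like-MO1 embryos: blf by 12.3-fold, polr3gla by 7.70-fold, nnr by 5.79-fold and asb11 by 2.31-fold. The other 6 did not pass the test, and no member rose. The 10 genes were chosen with earlier results of these data known, so the shares below are a description. Counted by target, 4 of 12 were lower at an adjusted p under 0.05 (limma, Benjamini-Hochberg over all targets), against 0.39% of all targets, and 0 were higher, against 0.257%. The median log2 fold change was -0.56 over the 12 targets and -0.012 over all targets. On 5 of the 12 the nanog-like-MO1 arrays lay below every control-MO array, against 7.97% of all targets. On 0 they lay above, against 7.36%, and on the other 7 the groups overlapped. At an unadjusted p under 0.05 the same fit gave 6 of the 12 lower, against 5.03% of all targets, and 0 higher, against 5.3%. The balance of all targets moved with the scaling. The reference genes were 15 measured of a list of 17, such as actb1 and gapdh. Of these 0 passed, and their median log2 fold change was -0.067. With arrays centred on these reference genes 143 targets were lower and 156 higher at the adjusted threshold, against 150 and 99 here. At the unadjusted threshold 679 were then lower and 3621 higher, and with median scaling 2270 and 1489, against 1935 and 2039 here.

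**Figure D1:**
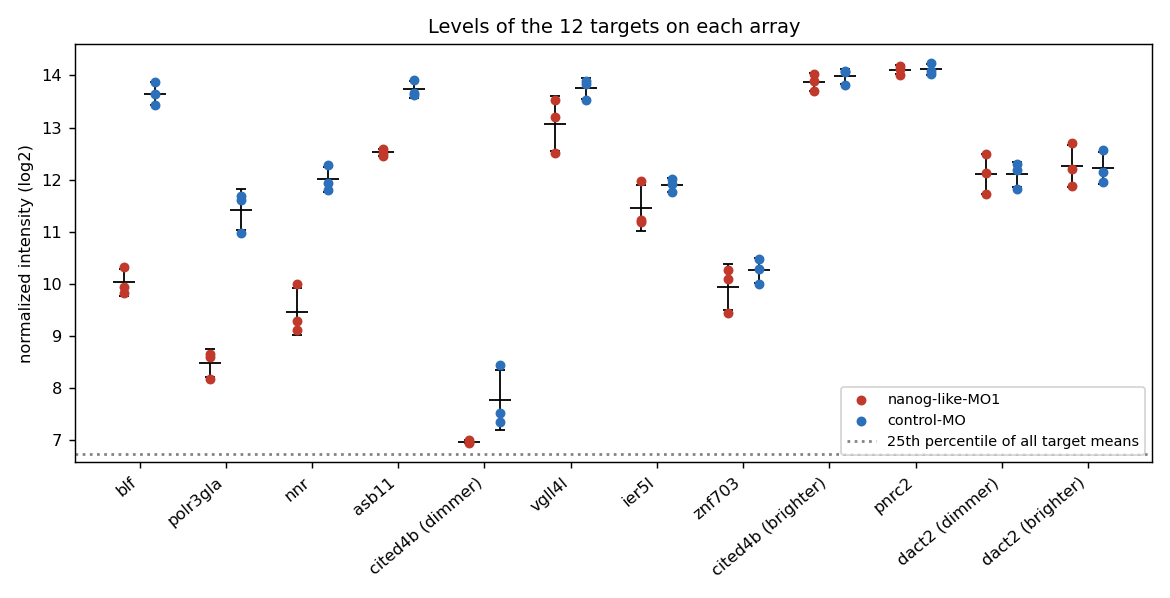
Normalized intensity (log2) of the 12 targets on each array, with nanog-like-MO1 arrays in red left of control-MO arrays in blue. Black marks are the mean and SD of 3 arrays, and the dotted line is the 25th percentile of all target means (6.74). The groups stand far apart for blf, polr3gla, nnr and asb11, and do not overlap for the dimmer cited4b target. They overlap for the other 7, which are the brighter cited4b target, vgll4l, ier5l, znf703, pnrc2 and both dact2 targets.

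Blf encodes a protein with many zinc fingers, needed in zebrafish for the cell movements that shape the neural tube. Its target, NM_001012485, is placed on build Zv7 chromosome 22 from 6756900 to 6761720. Its normalized levels were 9.82, 9.94 and 10.33 on the nanog-like-MO1 arrays, against 13.64, 13.44 and 13.88 on the control-MO arrays (log2). Before any normalization the raw mean intensities were 984, 951 and 1449 on the nanog-like-MO1 arrays, against 12304, 11934 and 14830 on the control-MO arrays. The highest nanog-like-MO1 array thus lay far below the lowest control-MO array on both scales. This is a log2 fold change of -3.62 (SE 0.18, 95% interval -4.05 to -3.19), with an adjusted p of 0.00164 by limma. Intensities in the authors' value table were 602, 707 and 887 on the nanog-like-MO1 arrays, against 11261, 9859 and 12236 on the control-MO arrays. A target of bcor, a corepressor gene, spans the blf target on Zv7 (6713722 to 6769807). Its level was 11.97 ± 0.22 in nanog-like-MO1 embryos and 11.99 ± 0.10 in control-MO embryos (SD, n = 3 each), with a log2 fold change of -0.02 (SE 0.14).

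The second zinc finger gene, znf703, encodes a transcriptional repressor that patterns the hindbrain in zebrafish. Levels of its target (Zv7 chromosome 5, 10673037 to 10676738) were 10.27, 9.45 and 10.10 on the nanog-like-MO1 arrays and 10.01, 10.30 and 10.48 on the control-MO arrays. Nanog-like-MO1 replicate 2 was the lowest array, and the other 2 arrays of its group lay inside the control-MO range. As a log2 fold change this was -0.32 (SE 0.24, 95% interval -0.90 to 0.26, adjusted p = 0.754 by limma). It was -0.07 without nanog-like-MO1 replicate 2, -0.49 without nanog-like-MO1 replicate 1 and -0.21 without control-MO replicate 3. Centring on reference genes gave -0.17 for znf703. The interval from all arrays excludes a fall of the size seen for blf, and does not show that the level stayed the same.

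Among RNA polymerase and RNA decay genes, polr3gla fell and pnrc2 did not pass. Polr3gla encodes a subunit of RNA polymerase III, the enzyme that makes transfer RNA and other small RNAs. Levels of its target (Zv7 chromosome 19, 13071791 to 13081574) were 8.18, 8.66 and 8.61 on the nanog-like-MO1 arrays, against 10.98, 11.68 and 11.62 on the control-MO arrays. Raw mean intensities were 352, 407 and 512 on the nanog-like-MO1 arrays, against 2121, 3406 and 3004 on the control-MO arrays, so that the lowest control-MO array was still well above the highest nanog-like-MO1 array. A log2 fold change of -2.94 resulted (SE 0.23, 95% interval -3.50 to -2.39, adjusted p = 0.00506 by limma). It was -3.50 in the authors' value table, where the intensities were 95.3, 145 and 165 on the nanog-like-MO1 arrays, against 1059, 1848 and 1690 on the control-MO arrays.

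The fall of polr3gla was set beside its sister gene polr3glb, which was picked after values were seen. Polr3glb had a level of 8.70 ± 0.16 in nanog-like-MO1 embryos and 8.30 ± 0.14 in control-MO embryos (SD, n = 3 each), a log2 fold change of 0.40 (SE 0.13, adjusted p = 0.361 by limma). Relatives of other members went both ways, and those listed next did not pass. Log2 fold changes were -0.96 for cited2, -0.59 for asb5b, -0.34 for znf503 and -0.15 for asb5a. The targets of cited4a gave -0.15 and -0.24, while ier5, pnrc1 and vgll4b gave 0.30, 0.15 and 0.02.

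Pnrc2 encodes an adaptor for mRNA decay, which in zebrafish helps to clear the oscillating transcripts of the segmentation clock. Levels of its target (Zv7 chromosome 16, 39539790 to 39543619) were 14.02, 14.12 and 14.18 on the nanog-like-MO1 arrays and 14.02, 14.24 and 14.09 on the control-MO arrays. All 6 arrays lay within a narrow band, and the groups overlapped throughout. The log2 fold change was -0.01 (SE 0.11, 95% interval -0.27 to 0.25, adjusted p = 0.994 by limma), the narrowest interval of the 12 targets. No direction is given, since the sign turned with arrays centred on reference genes (0.06).

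Of the signalling genes, asb11 fell and dact2 did not pass. Asb11 encodes an ankyrin repeat and SOCS box protein, which in zebrafish directs breakdown of the ligand DeltaA and thereby promotes Notch signalling. Levels of its target (Zv7 chromosome 9, 19245026 to 19251606) were 12.59, 12.46 and 12.52 on the nanog-like-MO1 arrays, against 13.66, 13.91 and 13.63 on the control-MO arrays. The nanog-like-MO1 arrays lay close together, with an SD of 0.07, and below every control-MO array. Asb11 had a log2 fold change of -1.21 (SE 0.12, 95% interval -1.49 to -0.93, adjusted p = 0.0106 by limma). The asb11 intensities in the authors' value table, 5994, 5446 and 5734 on the nanog-like-MO1 arrays against 13262, 16714 and 13590 on the control-MO arrays, gave -1.34. The asb11 interval did not meet those of blf, polr3gla and nnr, so its fall was the smallest of the 4 on this scale.

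Dact2 encodes a protein that in zebrafish promotes the breakdown of Nodal receptors, and its family also acts in Wnt signalling. Levels of its brighter target (NM_001077794, Zv7 chromosome 13, 39912059 to 39918554) were 12.21, 11.88 and 12.70 on the nanog-like-MO1 arrays and 11.95, 12.57 and 12.15 on the control-MO arrays. Those of the dimmer target (NM_201586, 39912210 to 39918460) were 12.12, 11.72 and 12.49 on the nanog-like-MO1 arrays, against 11.82, 12.30 and 12.18 on the control-MO arrays. Nanog-like-MO1 replicate 3 was the highest and replicate 2 the lowest of their group on both targets, and arrays of both groups were mixed in order. Its log2 fold change was 0.04 (SE 0.25, 95% interval -0.56 to 0.64) on the brighter target and 0.01 (SE 0.23, 95% interval -0.53 to 0.55) on the dimmer one, with adjusted p of 0.985 and 0.997 by limma. Both changed sign with arrays scaled to a common median (-0.08 and -0.11) and without some single arrays, so no direction is given. The sister gene dact1, picked after values were seen, had a log2 fold change of -0.75 (SE 0.22, adjusted p = 0.309 by limma).

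The transcription cofactors cited4b and vgll4l did not pass. Cited4b encodes a protein of the family that binds the coactivators CBP and p300. Its brighter target (Zv7 chromosome 16, 28948636 to 28950956) had levels of 14.03, 13.70 and 13.88 on the nanog-like-MO1 arrays and 14.08, 14.06 and 13.82 on the control-MO arrays. Its log2 fold change was -0.11 (SE 0.13, 95% interval -0.43 to 0.21, adjusted p = 0.862 by limma). Without 1 array in turn it lay between -0.20 (control-MO replicate 3 left out) and -0.03 (nanog-like-MO1 replicate 2 left out), with -0.19 without nanog-like-MO1 replicate 1 and -0.07 without control-MO replicate 1. Median scaling gave -0.25 and centring on reference genes -0.04. The dimmer target, which lies inside the span of the brighter one (28949421 to 28950752), had levels of 6.95, 6.97 and 7.01 on the nanog-like-MO1 arrays, against 8.44, 7.36 and 7.52 on the control-MO arrays. The groups did not overlap there, and control-MO replicate 1 stood above the other 2 arrays of its group.

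The log2 fold change of the dimmer cited4b target was -0.79 (SE 0.28, 95% interval -1.46 to -0.12), with an unadjusted p of 0.0268 and an adjusted p of 0.391 by limma. Without control-MO replicate 1 it was -0.46. The probes of this target differed more among themselves on that array than on any other, with a coefficient of variation of 1.31 there and of 0.903 at most on the other arrays. Its nanog-like-MO1 levels lay just above the 25th percentile of all targets, and changes at such low levels are understated by the offset used here. A log2 fold change of -1.26 came from the authors' value table (adjusted p = 0.221 by limma), again without passing.

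Vgll4l encodes a vestigial-like cofactor of TEAD factors. Levels of its target (Zv7 chromosome 8, 29689717 to 29697932) were 12.50, 13.53 and 13.20 on the nanog-like-MO1 arrays and 13.52, 13.84 and 13.90 on the control-MO arrays. Nanog-like-MO1 replicate 1 was low, and replicate 2 just reached the level of the lowest control-MO array, so the groups overlapped by a small margin. For vgll4l the log2 fold change was -0.68 (SE 0.27, 95% interval -1.32 to -0.03), with an unadjusted p of 0.0428 and an adjusted p of 0.461 by limma. Without nanog-like-MO1 replicate 1 it was -0.39.

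Nnr, a gene with no role given here, fell, and ier5l did not pass. Levels of the nnr target (NM_001029947, Zv7 chromosome 15, 3264745 to 3265728) were 9.12, 9.99 and 9.30 on the nanog-like-MO1 arrays, against 11.81, 11.93 and 12.28 on the control-MO arrays. Raw mean intensities of nnr were 631, 989 and 765 on the nanog-like-MO1 arrays, against 3692, 4065 and 4765 on the control-MO arrays. Nanog-like-MO1 replicate 2 was the highest of its group, yet well below every control-MO array. The log2 fold change was -2.53 (SE 0.25, 95% interval -3.14 to -1.93, adjusted p = 0.0117 by limma), and -2.78 in the authors' value table. The probes of nnr differed little among themselves, with a mean coefficient of variation of 0.433 on the nanog-like-MO1 arrays and 0.349 on the control-MO arrays, the lowest of the 12 targets in each group.

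Ier5l encodes a relative of the immediate early response protein Ier5. Levels of its target (Zv7 chromosome 5, 23471135 to 23473371) were 11.18, 11.23 and 11.97 on the nanog-like-MO1 arrays and 11.76, 12.02 and 11.91 on the control-MO arrays. Nanog-like-MO1 replicates 1 and 2 lay below all control-MO arrays, while replicate 3 lay among them. For ier5l the log2 fold change was -0.44 (SE 0.23, 95% interval -0.98 to 0.11, adjusted p = 0.601 by limma). Without nanog-like-MO1 replicate 3 it was -0.69 (unadjusted p = 0.00228, adjusted p = 0.209 by limma), and without any other single array it lay between -0.51 and -0.30.

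**Figure D2:**
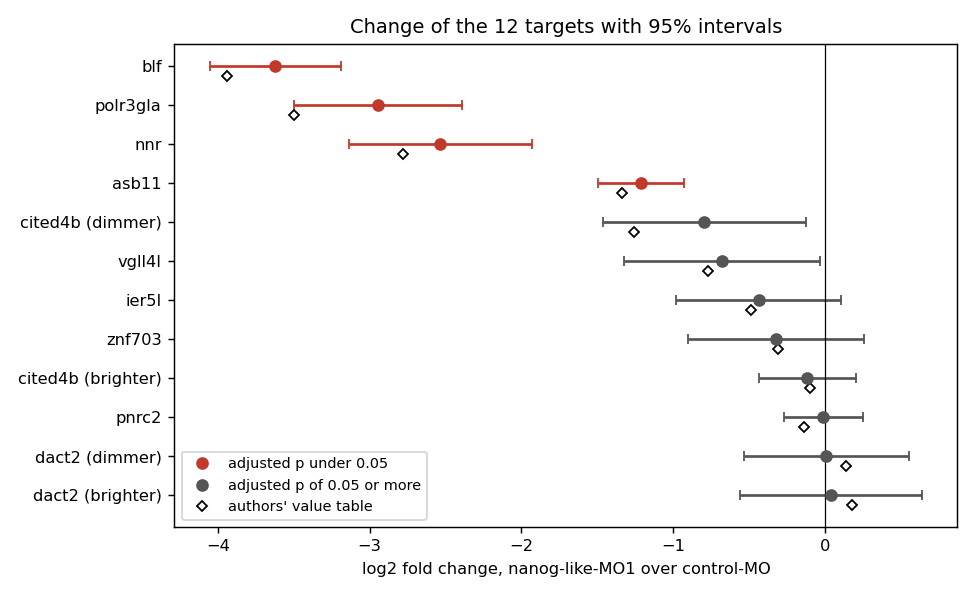
Log2 fold change (nanog-like-MO1 over control-MO) of the 12 targets, with 95% intervals from limma, red where the adjusted p is under 0.05, and open diamonds for the authors' value table. The intervals of blf, polr3gla, nnr and asb11 lie wholly below 0, as do those of the dimmer cited4b target and vgll4l, which did not pass after adjustment over all targets. Those of pnrc2, the brighter cited4b target, znf703, ier5l and both dact2 targets include 0.

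Blf and polr3gla passed without each array in turn, with adjusted p from 0.00752 to 0.0135 and from 0.0096 to 0.0359 by limma. Nnr was lost without control-MO replicate 2 (adjusted p = 0.0523), control-MO replicate 3 (0.0639) or nanog-like-MO1 replicate 3 (0.0734), with log2 fold changes of -2.57, -2.40 and -2.45. Asb11 was lost without control-MO replicate 3 (adjusted p = 0.052), nanog-like-MO1 replicate 2 (0.0588) or nanog-like-MO1 replicate 3 (0.0657), with log2 fold changes of -1.26, -1.18 and -1.21. Without control-MO replicate 3 or nanog-like-MO1 replicate 3, 2 of the 4 calls were left. The sizes of the nnr and asb11 falls thus moved little where their calls were lost.

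The array numbers in the labels fall into ranges, and only 1 range held both groups, with nanog-like-MO1 replicate 3 and the 3 control-MO arrays. Inside it the log2 difference of that array from the control-MO mean was -3.32 for blf, -2.82 for polr3gla, -2.71 for nnr and -1.22 for asb11. Fitted in limma beside this range as a block of arrays, these differences had adjusted p of 0.0833, 0.14, 0.0873 and 0.234, so the calls were lost. They rest on 1 nanog-like-MO1 array, which also entered the calls above. For ier5l the difference inside the range was 0.08, and for the dact2 targets 0.47 and 0.39.

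Spread among arrays is given as a description, since each SD rests on 3 arrays and no test of spread was run. The SD was larger over nanog-like-MO1 arrays on 8 of the 12 targets and larger over control-MO arrays on 4. The same share over all targets was not computed, so these counts do not set the members apart. The widest nanog-like-MO1 spread, 0.52, was that of vgll4l, against 0.20 in control-MO embryos. The widest control-MO spread, 0.58, was that of the dimmer cited4b target, against 0.03 in nanog-like-MO1 embryos. Over all targets the median SD was 0.173 for nanog-like-MO1 arrays and 0.179 for control-MO arrays.

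**Figure D3:**
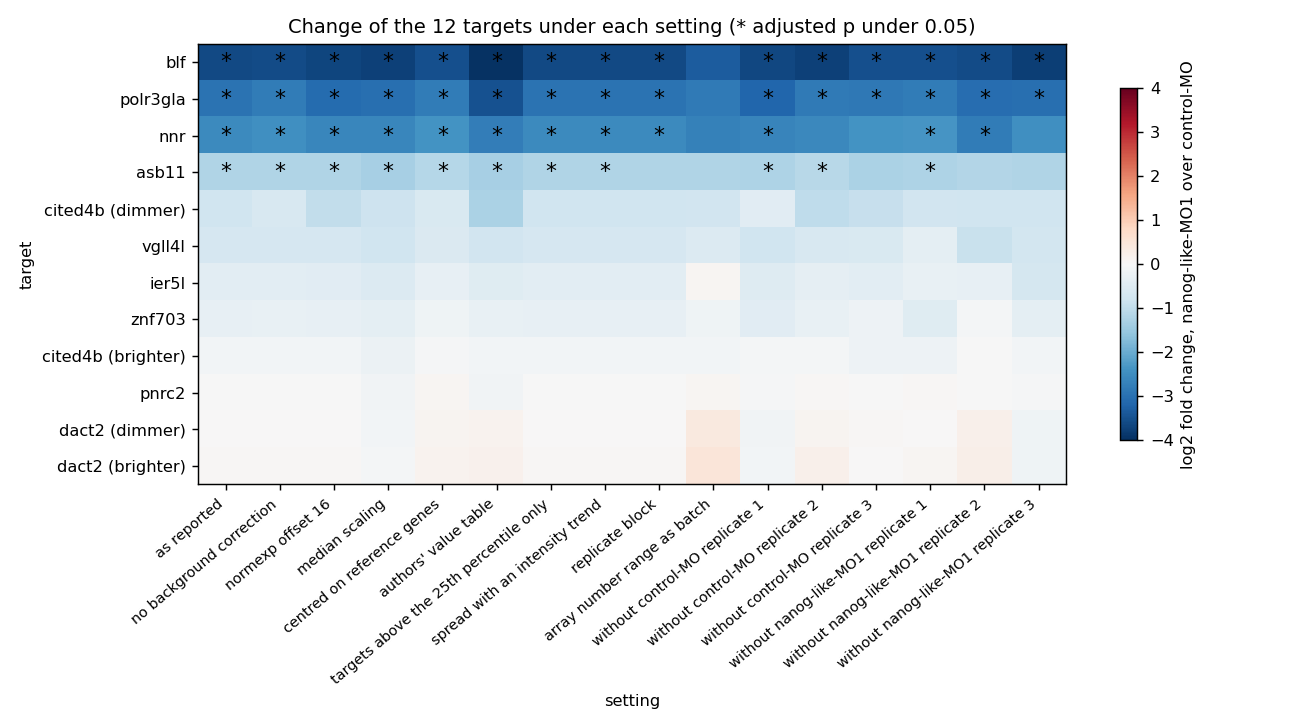
Log2 fold change (colour, nanog-like-MO1 over control-MO) of the 12 targets (rows) under each processing setting (columns), with a star where the adjusted p is under 0.05. Blf and polr3gla carry a star in every column but that of the array number range, where no target does, nnr and asb11 lose theirs in further columns, and the other 8 targets carry none.

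Other first-wave genes were read from a list of 76, of which 62 had a target. The list also holds sox19b, a maternal activator, which had a log2 fold change of -0.12 and did not pass. The list was chosen with earlier results of these data known, so its shares are a description and no test of first-wave genes. In nanog-like-MO1 embryos 16 of the 62 fell, 4 rose and 42 did not pass, with a median log2 fold change of -0.28. Over all 10795 named genes, counted in the same way with the brightest target of each, 0.565% fell, 0.195% rose and the median was -0.024. Those most clearly lower by adjusted p were rnd1b, sox3, tbx16, morc3b, her5 and vox, with falls of 14.6-, 17.8-, 17.7-, 11.4-, 16.9- and 8.27-fold. The 4 that rose were her3, cdx4, tbxta and lft1. Without control-MO replicate 2, control-MO replicate 3 or nanog-like-MO1 replicate 1, 10, 8 and 10 genes of the list fell, and 1 or 2 rose whichever array was left out. Of those that did not pass, the log2 fold changes farthest from 0 were 2.03 for sp5l, 1.25 for her7 and -1.17 for fgf17. Blf thus had a log2 fold change among the lowest of both sets, while pnrc2, dact2 and the brighter cited4b target had the changes nearest 0 among the 10 genes.

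**Figure D4:**
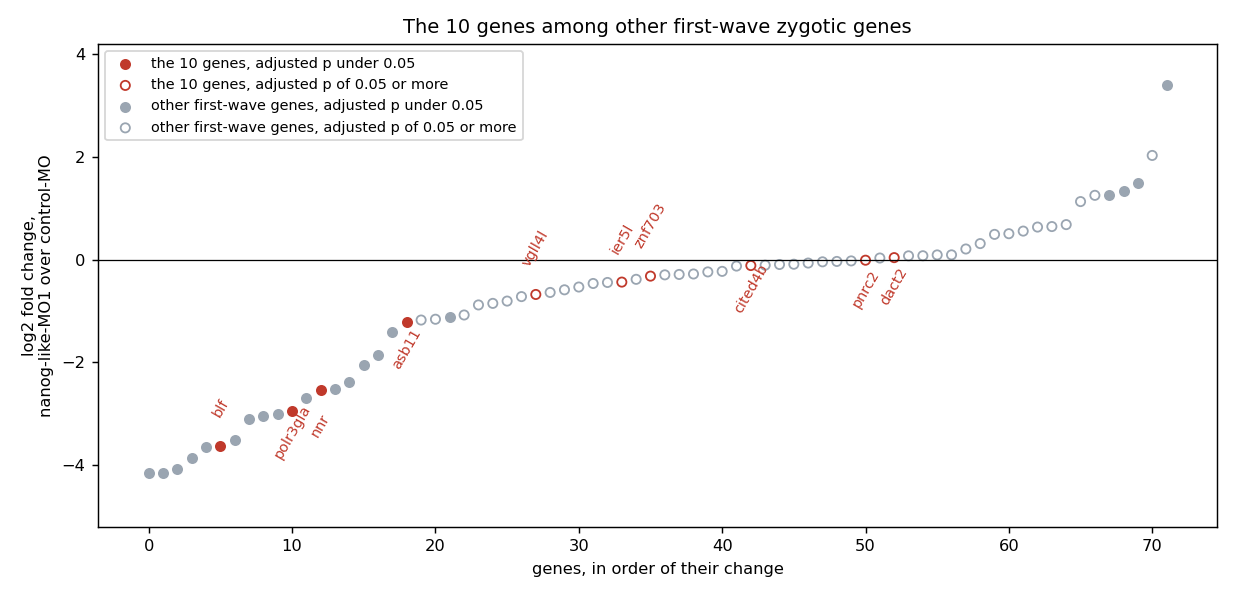
Log2 fold change (nanog-like-MO1 over control-MO) of the 10 genes (red, brightest target of each) and of the 62 other first-wave genes (grey), ordered from the lowest to the highest. Filled points have an adjusted p under 0.05. Changes run from -4.16 for sox3 to 3.39 for her3, and the 4 filled red points all lie below 0.

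The older symbol fam212aa belongs to inka1a, a gene outside the 10, and its 2 targets are given beside them without being counted. The first was found by another older symbol (Zv7 chromosome 11, 20961923 to 20968277). The second was found by map marker alone and lies elsewhere on that chromosome (31930542 to 31931215). Whether both report inka1a was not tested. On the first target the levels were 10.66 ± 0.38 in nanog-like-MO1 embryos and 13.49 ± 0.12 in control-MO embryos (SD, n = 3 each). On the second they were 9.27 ± 0.31 in nanog-like-MO1 embryos and 12.53 ± 0.09 in control-MO embryos. The log2 fold changes were -2.83 (SE 0.20, adjusted p = 0.00338 by limma) and -3.26 (SE 0.17, adjusted p = 0.00164 by limma).

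Over the 6 arrays the genes whose levels were most like those of blf were tbx16, drll.2, rheb, pcmtd1 and ttc7b, with Pearson r of 0.997, 0.997, 0.996, 0.995 and 0.995 for their normalized log2 values. The arrays form 2 groups, so r mostly follows the difference between them and ignores its size. Log2 fold changes were -4.15 for tbx16 and -2.25 for drll.2, but -0.53 for rheb, -0.35 for pcmtd1 and -0.46 for ttc7b, of which the last 3 did not pass.

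Some genes of the yolk syncytial layer, where nuclei lie at the surface of the yolk, moved with the falls. Of 9 measured genes of a list of 10, 3 fell (mxtx2, hnf4a and gata6), 0 rose and 6 did not pass. Over all named genes 0.565% fell and 0.195% rose. These 3 are also among the 16 first-wave genes that fell, and this list too was chosen with earlier results known. The mean level of the 9 ran from 6.97 to 7.20 on the nanog-like-MO1 arrays and from 7.89 to 8.35 on the control-MO arrays. Apobb.1, apoa1a, apoa4b.1, sebox and slc26a1 were dim in both groups, at levels between 6.20 and 7.06. Of these dim genes only slc26a1 had groups that did not overlap, with a log2 fold change of -0.53 (SE 0.10, adjusted p = 0.112 by limma). Hnf1ba, which did not pass either, was brighter, at 8.04 ± 0.46 in nanog-like-MO1 embryos and 9.52 ± 0.61 in control-MO embryos (SD). Its log2 fold change was -1.48 (SE 0.36, adjusted p = 0.220 by limma). Of 9 measured genes of the enveloping layer, the outer cell sheet, 0 passed, with mean levels from 11.95 to 12.37 on the nanog-like-MO1 arrays and from 11.69 to 12.34 on the control-MO arrays. The part of the yolk syncytial layer in the falls of blf, polr3gla, nnr and asb11 was not tested.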

How the data were processed

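Total RNA of 6 zebrafish samples was extracted with Trizol and hybridised with Cy3 label to NimbleGen 1-colour arrays, per the labels' protocols. Per the file headers, the authors deposited for each target and array a raw linear intensity, averaged over perfect-match probes, with the coefficient of variation and number of the probes kept. A second deposited table holds linear intensities that per the submitters' processing notes come from RMA. Its column medians ran from 179.39 to 200.32, and its version and centring stay unknown here. Depth has no meaning for arrays, and the 3 arrays per group limit the precision.

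Raw intensities ran from 77 to 65357, with array medians from 408 to 529. They were background corrected with normexp (offset 50), quantile normalized, which takes the bulk of targets as unshifted, and taken to log2. The 2-sided test was that of limma 3.58.1 (lmFit, eBayes) under R 4.3.3, with group alone in the model. Benjamini-Hochberg adjustment covered the 38489 targets, and an adjusted p under 0.05 counted as a call. Intervals of 95% use the moderated SE and 6.49 degrees of freedom. Fold changes are nanog-like-MO1 over control-MO. The alternatives tried are given with their effect at the end.

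Names came from the array design and a table of RefSeq genes (assembly GRCz12tu) that gave names alone. Of 2879 targets named in another way that also had a map marker, the marker gave the same gene for 93.8%. Of the 62 first-wave genes 14 were named by marker. The 1380 reverse-strand targets were left unnamed but stayed in the test, and the place of probes within transcripts was not analysed here. Beyond that the strand of targets was not used, so signal of overlapping genes such as blf and bcor was not separated by strand. A target of kcnj21 also overlaps cited4b (log2 fold change 0.05), and an unnamed target overlaps dact2 (0.25). Neither passed.

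The members and lists were chosen with earlier results of these data known. The rule for named genes takes the 10 genes, nanog, the 6 first-wave genes with the smallest adjusted p and the 3 largest changes among those that did not pass, and the 5 genes most like blf. Relatives of the members, overlapping targets, inka1a, the risers and the marker genes named were added after their values were seen. Planned motif searches in promoters were not run, since no sequence was used here. On simulated data with 38489 targets the limma fit recovered 29 of 100 targets changed by 1 and 77 of 100 changed by 2 on the log2 scale, with 4 false calls. The changed targets were drawn from those above the median level. The spread of each target was set to its own estimate from these arrays, which is itself uncertain. Errors were drawn independently and without an effect of array range, so the false calls say nothing about such an effect. A comparison of polr3gla with other subunits of the enzyme is not reported here.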

Additional observations from a re-analysis of the deposited data

How the results depend on the processing

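Without background correction, with an offset of 16, with median scaling, with reference-gene centring, in the authors' value table, above the 25th percentile only and with an intensity trend in the spread, 4 member targets were called, all lower. Where the array number range was a batch, limma called 0 targets, of members, of first-wave genes and of all targets alike, and at an unadjusted p under 0.05 it gave 1904 higher and 1676 lower targets. Without 1 array in turn the calls numbered 2 to 4 member targets, 9 to 15 first-wave genes and 95 to 185 targets in all, against 4, 20 and 249 on all arrays, with the fewest without control-MO replicate 3 (for member targets also without nanog-like-MO1 replicate 3). Correlations of deviations from the group means were -0.013, -0.097 and 0.171 between arrays of replicate numbers 1, 2 and 3. Between arrays of unlike number they ran from -0.299 to 0.259. With 3 arrays per group these values cannot settle whether the numbers pair the arrays. With the replicate block 134 targets, 12 first-wave genes and 3 member targets were called, asb11 being lost (adjusted p = 0.0743). Taking the brightest target per gene left 4 genes called.

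Signs turned for pnrc2, dact2 and ier5l, which were not called. Pnrc2, at -0.058 to 0.052 without 1 array in turn, was 0.063 with reference-gene centring, 0.069 with the range as a batch, 0.052 without control-MO replicate 2 and 0.035 without nanog-like-MO1 replicate 1. The brighter dact2 target was -0.077 with median scaling, -0.095 without control-MO replicate 1 and -0.176 without nanog-like-MO1 replicate 3 (up to 0.232 without another array), and the dimmer -0.114, -0.128 and -0.181 (up to 0.207). Ier5l, at -0.44 on all arrays, was 0.075 with the range as a batch. Reference-gene centring moved the median of all targets to 0.113, with 156 higher and 143 lower, against 99 and 150. In the simulation, with 3 arrays per group and changed targets above the median level, changes of 2-fold were often missed. Dimmer targets were not simulated as changed.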
